A study of Mus musculus with 2 samples.

Results

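The somatostatin system of the mouse ovary was described through 7 genes, the receptors Sstr1 to Sstr5 and the ligands Sst and Cort, found by gene symbol among the 24421 rows of a count table. Of the 7, only Sstr1 reached a mean of 1 CPM (counts per 1000000 counts of the scaled library). The family was chosen by the counts of Sstr1 in these same libraries, 168 in the H19KO library and 1151 in the WT library, so those counts are given as a description, with no test. The series compared ovarian transcriptomes of mice that lack H19, an imprinted long noncoding RNA, with those of wild-type mice, by sequencing RNA from which ribosomal RNA had been removed. Its question was which genes of the ovary H19 regulates. The H19KO library came from C57BL/6J mice of 8 weeks whose allele is labelled H19(Δ3), and the WT library from untreated C57BL/6J mice of the same age. There was 1 library per genotype, and the labels do not say how many animals or ovaries each holds or whether the mutants were homozygous. No difference below therefore has a replicate check, no p-value is given, and every ratio describes these libraries and not the genotypes.

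Somatostatin is a short cyclic peptide that restrains secretion of growth hormone, insulin and many other hormones, and cortistatin is a close relative from a separate gene that binds the same receptors. The receptors couple to inhibitory G proteins, lower cyclic AMP by way of adenylyl cyclase, act on potassium and calcium channels and engage tyrosine phosphatases. Sstr1 and Sstr4 form one class of receptors and Sstr2, Sstr3 and Sstr5 the other, which is the class that binds the clinically used analogues such as octreotide. In the rodent ovary somatostatin has been studied as a brake on the activation of resting follicles.

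A stretch of coding sequence for the seventh transmembrane segment is shown because it is a signature of all 5 receptors and shows how much alike their genes can be. It is given 5′ to 3′ on the coding strand in mm10 coordinates from GENCODE M21 transcripts, for Sstr1 at chr12:58213529-58213561, Sstr2 at chr11:113625160-113625192, Sstr3 at chr15:78539580-78539612, Sstr4 at chr2:148396362-148396394 and Sstr5 at chr17:25491345-25491377. Sstr1, Sstr2 and Sstr4 lie on the plus strand and Sstr3 and Sstr5 on the minus strand. Capitals mark bases that differ from Sstr1.
Sstr1: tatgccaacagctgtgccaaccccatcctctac
Sstr2: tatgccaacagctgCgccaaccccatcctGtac
Sstr3: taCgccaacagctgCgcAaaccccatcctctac
Sstr4: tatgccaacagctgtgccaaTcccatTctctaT
Sstr5: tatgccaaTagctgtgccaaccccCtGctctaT
The other receptors differ from Sstr1 at 2 to 4 of these 33 bases. Over the whole coding sequences the 10 receptor pairs were 61.1% to 69.6% identical, and Sstr1 and Sstr4 were the closest pair. The longest run of identical coding bases between Sstr1 and another receptor was 23 bases, with Sstr3. None of the 1971 windows of 76 bases in the annotated Sstr1 transcripts, the length of a read, occurred in a transcript of another gene. The same held for the windows of the other 6 genes.

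The receptor-binding core of the ligands is shown because it is what Sst and Cort share. It runs from cysteine to cysteine at the end of each precursor, on the minus strand at chr16:23889732-23889767 for Sst and at chr4:149125270-149125305 for Cort, and capitals mark bases that differ from Sst.
Sst: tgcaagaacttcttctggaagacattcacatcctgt
Cort: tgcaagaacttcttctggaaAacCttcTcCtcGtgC
The cores differ at 6 of 36 bases, and the whole coding sequences were 58.6% identical.

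H19 itself had 0 counts in the H19KO library and 672 counts, or 28.9 CPM, in the WT library, as the labels state. Since a count of 0 allows up to 3 counts, its level was at least 223-fold lower in the H19KO library. The H19KO library held 23041225 counts over 19556 genes and the WT library 23335131 counts over 18730 genes. One CPM corresponds to about 23.1 counts in the H19KO library and 23.3 counts in the WT library. Intervals in parentheses are exact 95% binomial intervals of the H19KO to WT ratio, on the log2 scale unless another unit is named. They and the allowance for a count of 0 cover counting error only.

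Neither ligand was detectable above the allowance for a count of 0. Sst, the somatostatin precursor gene, had 1 count in the H19KO library and 0 counts in the WT library. Cort, the cortistatin precursor gene, had 1 count in each library. These values are below the 3 counts that a count of 0 allows, which is 0.130 CPM in the H19KO library and 0.129 CPM in the WT library, so no ratio is given.

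Sstr1, the only well-counted receptor, was lower in the H19KO library. The gene lies on chromosome 12 (mm10, 58211772 to 58214444, plus strand), has 3 blocks of exon sequence and overlaps no other annotated gene. It had 168 counts, or 7.27 CPM, in the H19KO library, against 1151 counts, or 49.5 CPM, in the WT library. The log2 ratio was -2.76 (-3.01 to -2.53), which puts the H19KO level at 14.7% of the WT level (12.4% to 17.3%). Its interval lay wholly below 2-fold, as did those of 0.388% of the 13928 genes that averaged 1 CPM or more, called measured here, while 0.610% lay wholly above 2-fold. Because this contrast chose Sstr1, nothing is read from its place among those genes. RNA came from whole ovaries, in which fewer cells of a type and less RNA per cell cannot be told apart.

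The other receptors of the family were scarce in both libraries. Sstr2, the main target of octreotide, had 13 counts in the H19KO library and 14 in the WT library, a log2 ratio of -0.10 (-1.31 to 1.10). Sstr2 lies inside the region spanned by Slc39a11, a zinc transporter gene of the opposite strand with 662 counts in the H19KO library and 471 in the WT library. The annotated exons of the pair do not overlap. Sstr3, a receptor found on neuronal cilia, had 9 counts in the H19KO library and 10 in the WT library, a log2 ratio of -0.14 (-1.62 to 1.31). For Sstr2 and Sstr3 the ratio measured for Sstr1 lies outside the counting interval, whereas smaller differences in either direction were not detectable at this depth.

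Sstr4, the closest relative of Sstr1 in sequence, had 2 counts in the H19KO library and 7 in the WT library. Its log2 ratio of -1.58 had an interval of -5.10 to 0.59, which holds both 0 and the Sstr1 ratio. Sstr5 had 0 counts in the H19KO library and 1 in the WT library, so no ratio is given. Summed over Sstr2 to Sstr5 there were 24 counts in the H19KO library and 32 in the WT library, a log2 ratio of -0.40 (-1.23 to 0.40). The sum over all 5 receptors was 192 counts in the H19KO library and 1183 in the WT library, a log2 ratio of -2.61 (-2.84 to -2.39).

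**Figure D1:**
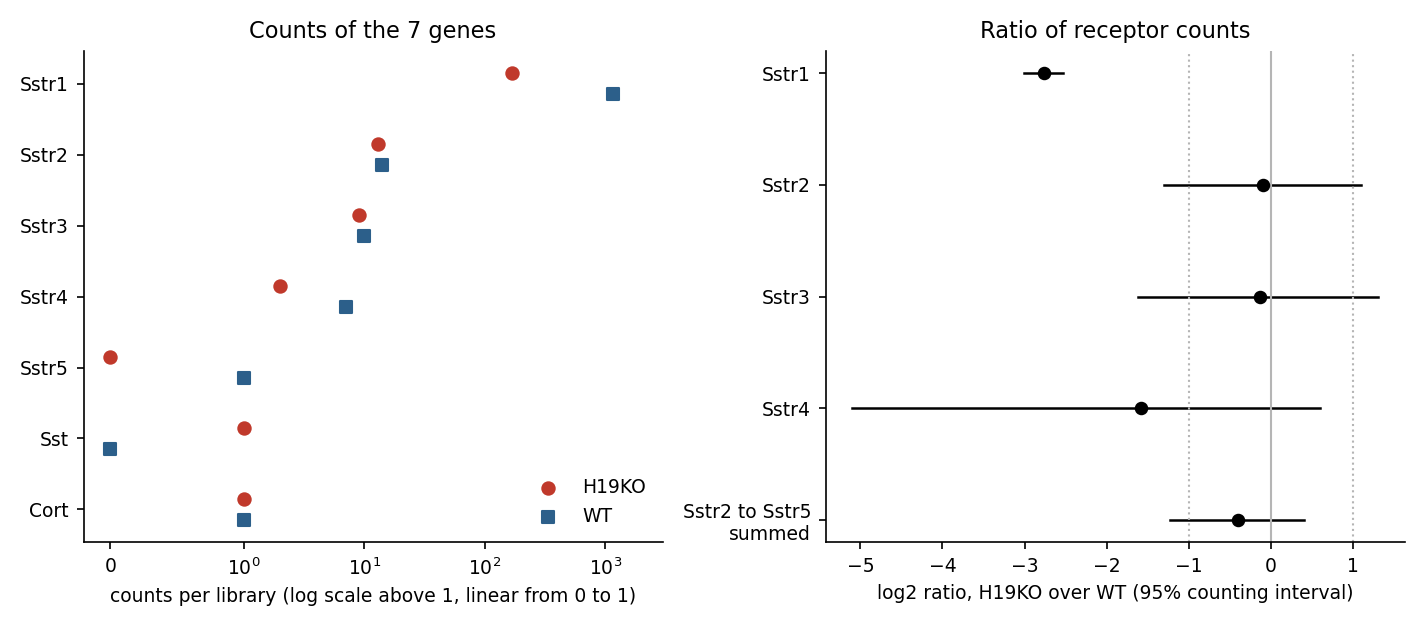
Left, counts of the 7 genes in the H19KO library (red circles) and the WT library (blue squares) on an axis that is logarithmic above 1 and linear from 0 to 1. Right, log2 ratio of counts, H19KO over WT, with 95% counting intervals for Sstr1 to Sstr4 and for Sstr2 to Sstr5 summed, with dotted lines at 2-fold. Sstr1 alone stands above 100 counts in both libraries, and it was chosen by these counts. Its interval, which covers counting error only, does not reach that of the other receptors summed, which is a description.

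Sstr1 made up most of the receptor counts in both libraries. The shares restate the counts by which Sstr1 was chosen and are a description. It took 87.5% of the counts of the 5 receptors in the H19KO library (exact Clopper-Pearson interval 82.0% to 91.8%, 168 of 192) and 97.3% in the WT library (96.2% to 98.1%, 1151 of 1183). Sstr2 took 6.77% in the H19KO library (3.65% to 11.3%) and 1.18% in the WT library (0.648% to 1.98%), a difference that follows from the Sstr1 counts, since Sstr2 had 13 counts in the H19KO library and 14 in the WT library. Per kilobase of exon, which allows levels of different genes to be set side by side, Sstr1 held 89.6% of the receptor level in the H19KO library and 97.5% in the WT library. On that scale the order was Sstr1, Sstr2, Sstr3, Sstr4 and Sstr5 in the H19KO library and Sstr1, Sstr2, Sstr4, Sstr3 and Sstr5 in the WT library. Only the place of Sstr1 at the head of that order is firm, since the counts of Sstr3 and Sstr4 are too few to order them.

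For scale, the ratios of genes counted about as often as Sstr1 are given as a description, since Sstr1 was chosen by this ratio. Within 1.5-fold of its mean CPM there were 3010 genes, from 18.9 to 42.6 CPM, and the central 95% of their log2 ratios ran from -0.52 to 0.55. Of the 3010, 14 had a ratio below -1, Sstr1 included. Another was Wisp2, named after its value was seen, with 434 counts in the H19KO library and 1521 in the WT library, a log2 ratio of -1.80. The aromatase gene Cyp19a1 was at -1.60.

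**Figure D2:**
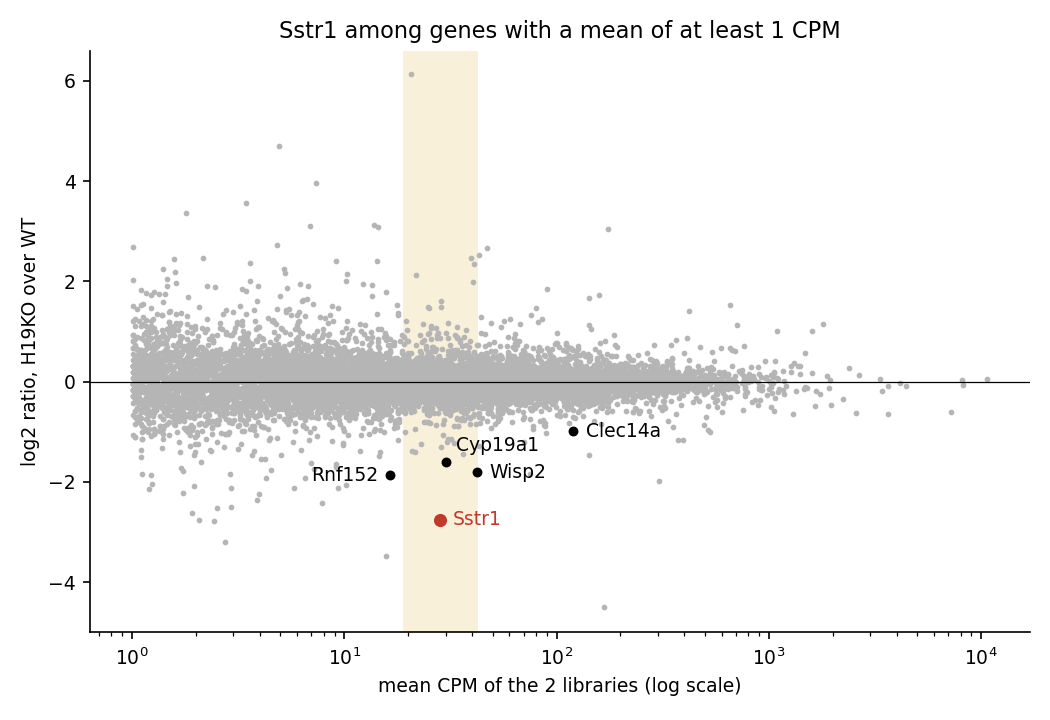
Log2 ratio, H19KO over WT, against mean CPM (log scale) for the 13928 measured genes, of which 2 lie outside the axis. The band marks the 3010 genes within 1.5-fold of the mean CPM of Sstr1 (red). Sstr1, chosen by this ratio, is at -2.76, and the central 95% of the genes in the band run from -0.52 to 0.55.

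The genes whose levels were most like those of Sstr1, by Euclidean distance over log2 CPM in the 2 libraries, were still about 1 log2 unit away. Rnf152, a ubiquitin ligase of the lysosomal membrane, was nearest at a distance of 0.94. It had 165 counts in the H19KO library and 601 in the WT library, a log2 ratio of -1.85 (-2.11 to -1.61). Tnfrsf9, which encodes the costimulatory receptor 4-1BB, had 273 counts in the H19KO library and 724 in the WT library, a log2 ratio of -1.40. The others were Abhd14b at a ratio of -1.39, Cyp19a1 at -1.60 and Lgr6, an R-spondin receptor gene, at -1.25, the last at a distance of 1.09. The 5 genes lie on chromosomes 1, 4 and 9, away from Sstr1. With 2 libraries this likeness is a description of levels and nothing more.

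Set among 21 other measured receptors of the same superfamily that act in the ovary, Sstr1 held different places in the libraries. Its places restate the counts by which Sstr1 was chosen and are a description. Per kilobase of exon it stood at 3.55 CPM in the H19KO library, place 11 of 22, and at 24.2 CPM in the WT library, place 4 of 22. In the WT library, of these 22, only Lhcgr, the luteinising hormone receptor, Ptgfr, the prostaglandin F receptor, and Oxtr, the oxytocin receptor, stood higher per kilobase. Lhcgr stood at 61.3 CPM per kilobase in the H19KO library and 87.2 in the WT library. Ptgfr stood at 48.0 CPM per kilobase in the H19KO library and 66.0 in the WT library. Fshr, the follicle-stimulating hormone receptor, stood at 11.5 CPM per kilobase in the H19KO library and 16.5 in the WT library, so it ranked above Sstr1 in the H19KO library and below it in the WT library.

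None of these 21 receptors had an interval wholly beyond 2-fold in either direction. Over all measured genes 0.610% lay wholly above 2-fold and 0.388% wholly below. None among 21 is near those shares and is no result about these receptors. Their median log2 ratio was -0.18, where the median of all measured genes was -0.01. It was -0.07 without the low count filter, and the mean was -0.04. Intervals lay below 0 for 9 of the 21, above 0 for 4 and across 0 for 8, while over all measured genes 24.0% had an interval below 0 and 22.2% above it. Fshr had the lowest ratio at -0.52 (-0.67 to -0.37), with Lhcgr at -0.51 and Ptgfr at -0.46. Agtr1a, an angiotensin receptor, had the highest at 1.10 (0.64 to 1.58), with 124 counts in the H19KO library and 58 in the WT library.

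**Figure D3:**
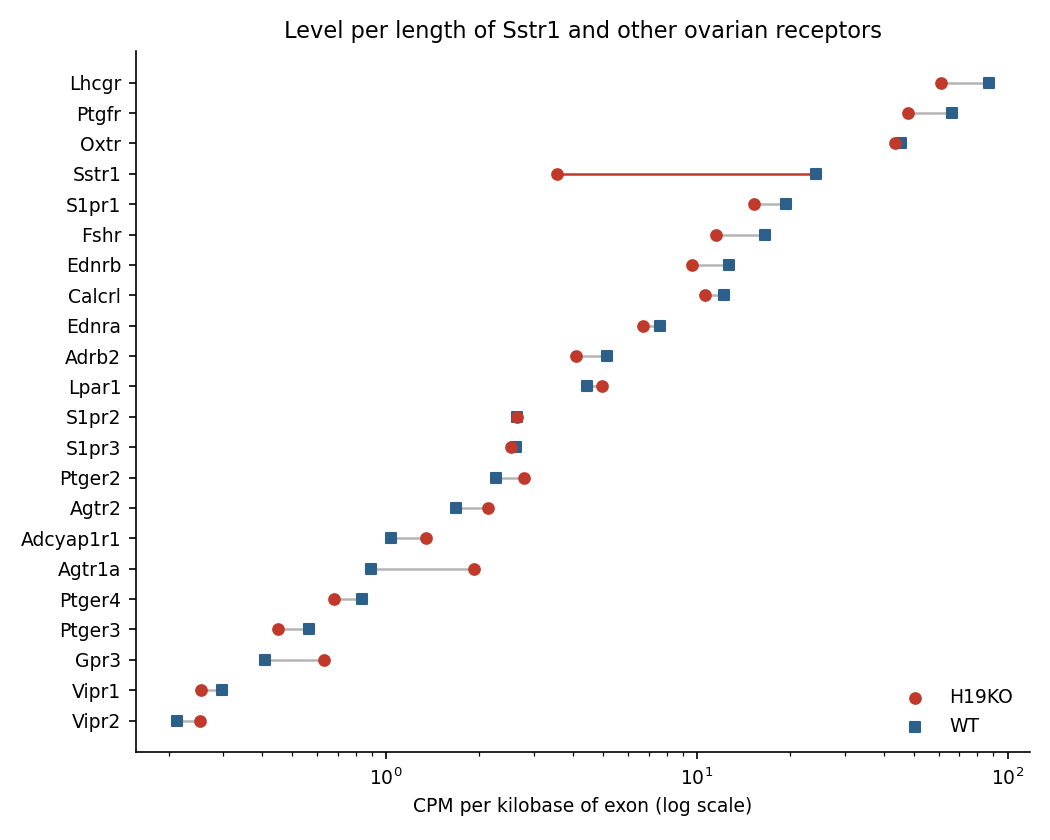
Level per length (CPM per kilobase of exon, log scale) of Sstr1 and 21 other ovarian G protein-coupled receptors in the H19KO library (red circles) and the WT library (blue squares), ordered by the WT level. Sstr1 stands at 3.55 in the H19KO library, place 11 of 22, and at 24.2 in the WT library, place 4 of 22. These places restate the counts by which Sstr1 was chosen.

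Of 40 genes of the machinery around somatostatin receptors, in 6 lists, 34 were measured. Intervals lay above 0 for 9 of the 34, below 0 for 13 and across 0 for 12, beside 22.2% above and 24.0% below over all measured genes. Their median log2 ratio was -0.07, beside -0.01 over all measured genes, and the range was -0.97 to 0.77. None lay wholly beyond 2-fold, which is near the share over all measured genes and is no result about these lists. These lists were chosen with earlier results of these data known.

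All 5 inhibitory G alpha subunits, which carry the signal from the receptor, were measured, with a median log2 ratio of -0.06. Gnai2 had 6130 counts in the H19KO library and 6440 in the WT library, a log2 ratio of -0.06 (-0.11 to -0.01). Gnai3 had 4850 counts in the H19KO library and 4440 in the WT library, a log2 ratio of 0.14 (0.08 to 0.19). Of the 9 adenylyl cyclases, some of which these subunits inhibit, 8 were measured, with 1 interval above 0, 3 below and a median of -0.03. Adcy9 had 5076 counts in the H19KO library and 5497 in the WT library (-0.11). Adcy6 had 2333 counts in the H19KO library and 2834 in the WT library (-0.27).

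Among the effector channels, 5 of 8 were measured, with a median of -0.29, 1 interval above 0 and 3 below. Without the low count filter the median was -0.0339. Cacna1c, a pore subunit of L-type calcium channels, had a log2 ratio of 0.25 (0.14 to 0.36), and its relative Cacna1d one of -0.08 (-0.23 to 0.08). Cacna1a, of P/Q-type channels, had 294 counts in the H19KO library and 480 in the WT library, a log2 ratio of -0.70 (-0.91 to -0.49). The potassium channel subunit genes Kcnj3 and Kcnj5 had log2 ratios of -0.29 and -0.97. Kcnj5 had only 20 counts in the H19KO library and 40 in the WT library.

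The 3 tyrosine phosphatases that somatostatin receptors engage had a median log2 ratio of 0.12, and of 0.29 by the mean. Ptpn11 had a log2 ratio of 0.07 (0.000401 to 0.13), an interval that crosses 0 with median-of-ratios scaling, and Ptprj one of 0.12 (0.01 to 0.23). Ptpn6, which is abundant in blood cells, had 415 counts in the H19KO library and 261 in the WT library, a log2 ratio of 0.68 (0.45 to 0.91). Of the macrophage markers, Csf1r was lower in the H19KO library, at -0.24 (-0.35 to -0.13), whereas intervals of the other 5 lay above 0. The summed level of all 6 macrophage markers was 550.2 CPM in the H19KO library and 436.3 CPM in the WT library. Their part in the Ptpn6 value was not tested.

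Receptor kinases and arrestins, which switch activated receptors off, were measured for all 7 genes, with a median of -0.07, 1 interval above 0 and 2 below. Arrb1 had a log2 ratio of -0.07 (-0.16 to 0.02) and Adrbk1, the kinase also called Grk2, one of -0.11 (-0.21 to -0.01). Grk5 was the one above, at 0.43 (0.24 to 0.62). Among enzymes that process peptide precursors 6 of 8 were measured, with a median of -0.09, 2 intervals above 0 and 3 below. Cpe, a carboxypeptidase, had 29112 counts in the H19KO library and 25225 in the WT library, a log2 ratio of 0.21. Pam, the amidating enzyme, had one of -0.09. Ratios of the 6 measured ran from -0.61 (-0.72 to -0.50) for Pcsk6 to 0.77 (0.71 to 0.84) for Pcsk5. Pcsk1 and Pcsk2, the convertases of neuroendocrine granules, were below 1 CPM. Pcsk1 had 2 counts in the H19KO library and 5 in the WT library, and Pcsk2 had 17 counts in the H19KO library and 6 in the WT library.

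**Figure D4:**
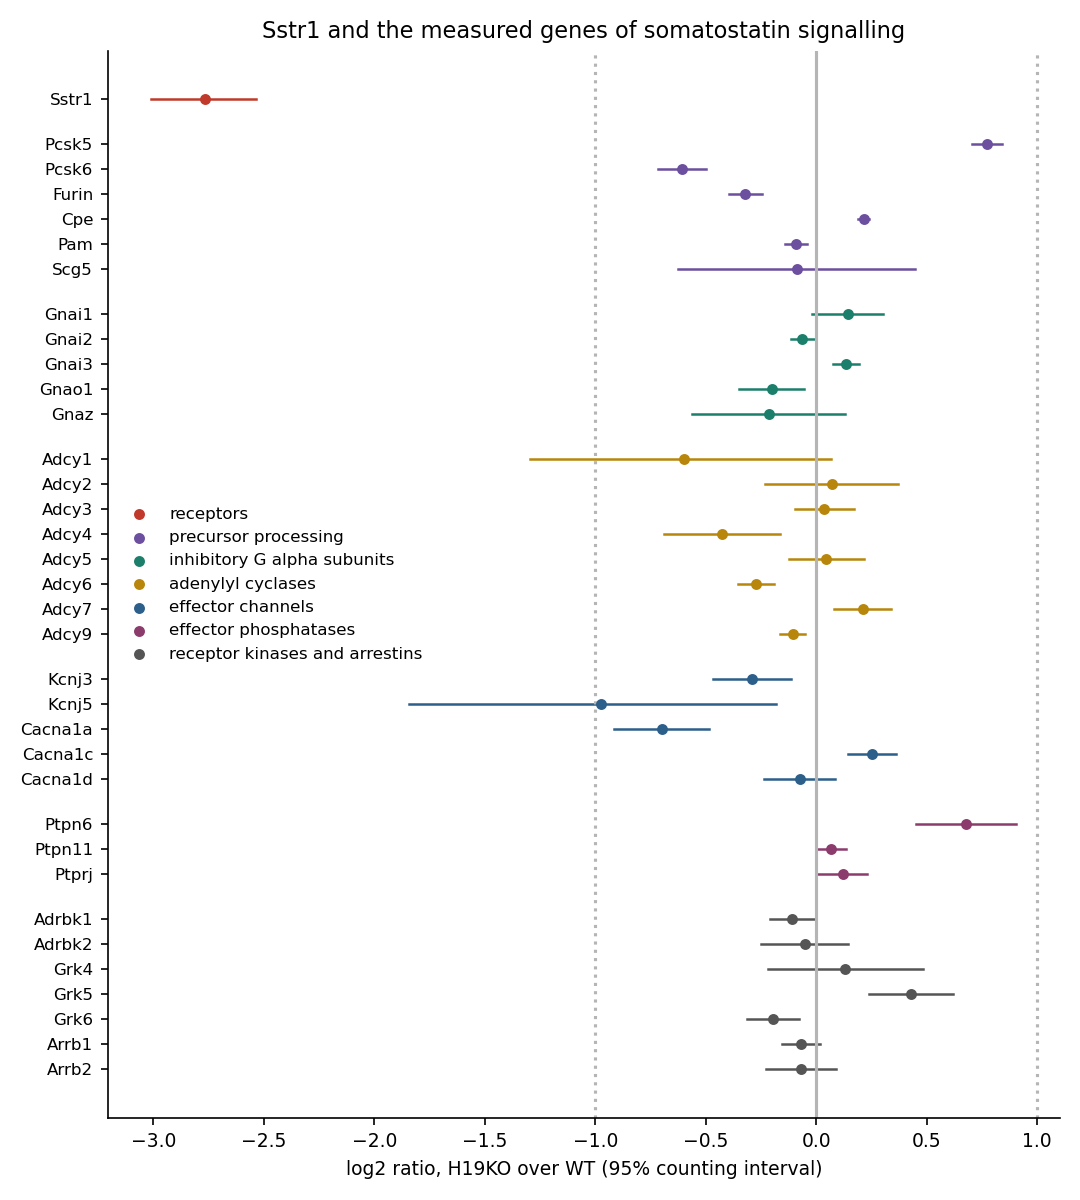
Log2 ratio, H19KO over WT, with 95% counting intervals for Sstr1 and 34 measured genes of somatostatin signalling, coloured by list, with dotted lines at 2-fold. The 34 genes lie between -0.97 and 0.77. Sstr1 is at -2.76 and was chosen by this ratio. The lists of the other genes were chosen with earlier results of these data known.

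Receptors related to the family had few or no counts. Of 11 opioid, galanin, kisspeptin and other peptide receptors, 10 were below 1 CPM, and none had more than 22 counts in the H19KO library or 25 in the WT library. The one measured, the nociceptin receptor Oprl1, had 22 counts in the H19KO library and 25 in the WT library. In the growth hormone axis, which somatostatin controls in the pituitary, only the growth hormone receptor Ghr was measured. It had 1893 counts in the H19KO library and 2090 in the WT library, a log2 ratio of -0.13 (-0.23 to -0.04). Gh and Ghrhr were at 0 in both libraries.

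The nearest measured gene to Sstr1 was also lower in the H19KO library, whereas the other measured neighbours, all much farther away, had ratios nearer 0. The stretch they span holds 54 annotated genes, Sstr1 included, of which 20 were found by symbol among the rows. How ratios change with distance from Sstr1 can therefore not be told. Clec14a, an endothelial lectin gene at 58264720 to 58269290 on the minus strand, starts 57.5 kb from the start of Sstr1. It had 1866 counts in the H19KO library and 3688 in the WT library, a log2 ratio of -0.97 (-1.06 to -0.89), and its interval was not wholly beyond 2-fold. The other 9 of the 10 nearest measured genes had log2 ratios between -0.14 and 0.31. The next on the Clec14a side, Sec23a, had a ratio of 0.02 (-0.05 to 0.09) and starts 800.2 kb away. On the other side the nearest were Mipol1 at 0.31 (0.03 to 0.59) and Prps1l3, whose annotation overlaps it, at -0.05 (-0.15 to 0.05). The start sites of both lie at -981 kb from that of Sstr1. The median of the 10 was -0.02.

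Clec14a also stood below the endothelial markers. Of these, 5 of 6 had an interval below 0 and 1 spanned it, with log2 ratios between -0.36 and 0.03 and a summed level of 526.4 CPM in the H19KO library and 620.5 CPM in the WT library. Whether Sstr1 and Clec14a are expressed in the same cells cannot be told from whole-ovary RNA.

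**Figure D5:**
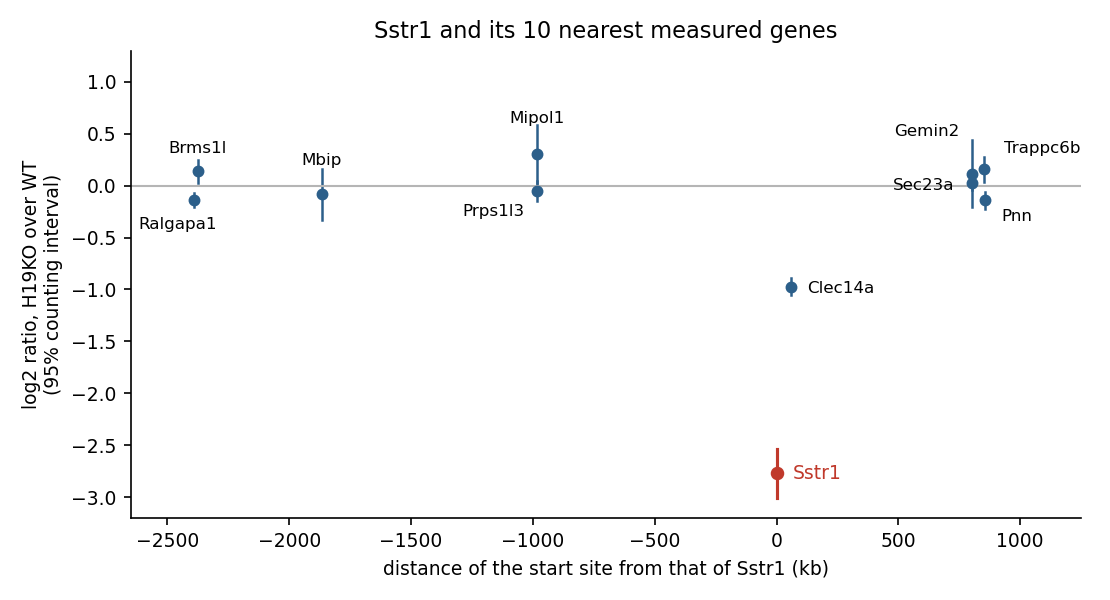
Log2 ratio, H19KO over WT, with 95% counting intervals for Sstr1 (red) and the 10 nearest measured genes (blue), against the distance of each start site from that of Sstr1 in kb. Clec14a, 57.5 kb away, is at -0.97 and the other 9 lie between -0.14 and 0.31.

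The tissue label was checked against markers of ovarian cells, several of which differed in the same direction as Sstr1. Over all measured genes 24.0% of intervals lay below 0 and 22.2% above. Granulosa markers were all measured, with 8 of 10 intervals below 0, 1 above and a summed level of 2228 CPM in the H19KO library and 2968 CPM in the WT library. Among them Cyp19a1 lay wholly below 2-fold, with 345 counts in the H19KO library and 1052 in the WT library. Theca markers had 4 of 5 measured intervals below 0, 1 above and a sum of 6808 CPM in the H19KO library and 7288 CPM in the WT library. Most of that sum was Cyp11a1, at 4120 CPM in the H19KO library and 4176 CPM in the WT library. Star added 1964 CPM in the H19KO library and 1815 CPM in the WT library, so the sum says little of the other theca markers. Cyp17a1, the androgen-making enzyme of theca cells, lay wholly below 2-fold at -1.98, whereas Cyp11a1 was at -0.02. Insl3, another theca marker, had 2 counts in the H19KO library and 1 in the WT library, and its annotation lies within that of Jak3. Luteal markers had 5 of 5 intervals below 0 and a sum of 3128 CPM in the H19KO library and 4235 CPM in the WT library. Oocyte markers had 7 of 10 below 0 and none above, with sums of 281.8 CPM in the H19KO library and 353.3 CPM in the WT library.

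Stromal and smooth muscle markers went the other way, with 8 of 8 intervals above 0 and a sum of 4862 CPM in the H19KO library and 3523 CPM in the WT library, as did surface epithelium markers with 4 of 6 above 0 (141.1 CPM in the H19KO library and 110.9 CPM in the WT library). The sums of the granulosa, theca, luteal, oocyte, stromal and surface lists each differed by less than 2-fold, and the oviduct and red blood cell sums given below by more. Their part in the Sstr1 difference was not tested. Of 10 nerve and neuroendocrine markers 4 were measured, with 1 interval above 0 and 2 below and a sum of 115.1 CPM in the H19KO library and 129.4 CPM in the WT library. Most of that sum was Uchl1, with 1718 counts in the H19KO library and 1924 in the WT library, and Tubb3, with 752 counts in the H19KO library and 918 in the WT library. Lymphocyte, adipocyte, oviduct and red blood cell lists had 1 measured gene each. Lymphocyte markers summed to 5.92 CPM in the H19KO library and 8.00 CPM in the WT library, and adipocyte markers to 11.4 CPM in the H19KO library and 15.1 CPM in the WT library. Most of the adipocyte sum was Plin1, with 253 counts in the H19KO library and 341 in the WT library. Cidec went the other way, with 8 counts in the H19KO library and 3 in the WT library. Oviduct markers summed to 6.31 CPM in the H19KO library and 2.28 CPM in the WT library, of which Ovgp1, with an interval wholly above 2-fold, made up most. The oviduct marker Foxj1 went the other way, with 3 counts in the H19KO library and 11 in the WT library. Pax8 had 9 counts in each library and Dynlrb2 had 0 in each. Red blood cell markers summed to 1.90 CPM in the H19KO library and 3.83 CPM in the WT library. All of it was Alas2, with 44 counts in the H19KO library and 89 in the WT library, whose interval was not wholly beyond 2-fold. The other 3 of the 4, all globin genes, were at 0 in both libraries, and the reason was not tested.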

How the data were processed

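The deposited values are whole-number counts per gene symbol made by the authors, with 1 column per genotype. The submitters' processing notes name STAR 2.5.0a, Cufflinks 2.2.1, DESeq2 1.0.0 and mm10, without roles. Which program counted the reads, on which annotation and with what strand setting is not given in the sources used here. Per the labels' protocols, libraries were stranded, depleted of ribosomal RNA and read as 76-base pairs. Whether the values were normalised and rounded is unsettled. The median H19KO to WT ratio over 17904 genes with counts in both was exactly 1, as normalisation could leave it, and the DESeq2 factors were 1. Scaling up whole reads would leave gaps, and the lowest absent whole number was 937 in H19KO and 527 in WT, but scaling down would leave none. All counting intervals assume raw counts.

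Libraries were scaled by TMM (edgeR 4.0.16), and CPM uses the scaled library size. Log2 ratios are H19KO over WT with 0.5 added to each count. The exact conditional binomial interval of the ratio was computed per gene. A gene was measured at a mean of at least 1 CPM and counted as beyond 2-fold when its whole interval was. This is a rule of size, not a test. The functions were tested on simulated data.

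Positions, exon lengths and coding sequences come from GENCODE M21 (mm10), in which 23350 of 24421 rows and all 7 genes matched. A further 27 rows carry dates in place of symbols and were kept in totals. No protein table was used, so a planned comparison of proteins was made on coding sequences (Biopython 1.88). The genes, the 11 lists and the 13 marker lists were chosen with earlier results of these data known. Named genes were the 7, H19, the 5 nearest to Sstr1 in level, the 5 measured neighbours on either side, and from each list the most abundant members and any beyond 2-fold. Other list members named with a value were chosen after it was seen. Alternatives covered scaling (DESeq2 1.42.0 among them), filters, fold limits, added counts and gene length.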

Additional observations from a re-analysis of the deposited data

How the results depend on the processing

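The Sstr1 log2 ratio ran from -2.77 to -2.73 under other scalings and with 5 added to each count. Each of the 28 values of the 7 genes stayed inside its counting interval. For Sst, Cort and Sstr5 that interval is too wide for this to be a check. For all 7 genes the scaling shifts were too small to leave it. Other scalings shifted log2 ratios by at most 0.01, and H19 was at least 221-fold to 224-fold lower in the H19KO library. With the longest transcript as length, Sstr1 held 89.7% of the receptor level in the H19KO library and 97.6% in the WT library. Counts of genes beyond 2-fold, 85 higher and 54 lower, became 206 and 123 by the point ratio, 251 and 168 at a limit of 1.5-fold and 16 and 7 at 4-fold, as a looser or stricter rule must, and 34 were lower at a minimum of 5 CPM because fewer genes were counted. The counting error of a list median was not computed, so each move was set against a spread from the counting intervals of its single members. Of 53 list medians 50 moved by less than that spread. The scaling shifts of at most 0.01 were small beside it, and some filters left the same genes, so those values are little check. The exceptions were effector channels (-0.0339) and the growth hormone axis (0.31) without the low count filter, which adds genes of few counts, and effector phosphatases by the mean (0.29), which Ptpn6 raises. No paired analysis was possible because there was only 1 library of each genotype, and so no replicate to omit. Depth limits Sstr2 to Sstr5, Sst and Cort, all below 1 CPM.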

Other observations

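A few genes of the lists lay below 1 CPM with unequal counts, and are given as values, chosen after they were seen. The opioid receptor gene Oprm1 had 8 counts in the H19KO library and 0 in the WT library, at least 2.68-fold higher by the allowance of 3 counts for 0. Oprk1 had 7 counts in the H19KO library and 1 in the WT library, and the potassium channel gene Kcnj9 had the same pair of counts. Both had intervals of the log2 ratio from -0.15 to 8.31, which span 0. Snap25, a synaptic protein gene, had 1 count in the H19KO library and 9 in the WT library, with an interval of -8.62 to -0.31.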
